A study of Mus musculus with 6 samples.

Results

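The enzymes of purine and pyrimidine nucleotide synthesis were examined in C17.2 cells after hypoxia/reoxygenation (H/R). The set holds 31 genes, chosen by their symbol in the deposited gene table, which lists 14665 protein-coding genes. Of these 31 genes, 16 belong to the purine steps, 5 to the pyrimidine steps, 8 to the making, salvage and breakdown of deoxynucleotides, and 2 are nucleoside diphosphate kinases that serve every branch. C17.2 is an immortalized mouse neural stem cell (NSC) line, and both groups came from it, so 1 line stands for all NSCs here. The H/R group (n = 3 libraries) spent 12 h at 5% oxygen and was then returned to standard oxygen for 48 h, and the control group (n = 3 libraries) stayed under standard oxygen. RNA was sequenced after removal of ribosomal RNA and counted per gene. Nothing in the labels ties the replicates to separate cultures, and p-values therefore measure the spread between libraries, which may be technical.

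A purine is built stepwise on a ribose phosphate, which phosphoribosyl pyrophosphate (PRPP) donates, until inosine monophosphate (IMP) is reached, and IMP is then turned into either AMP or GMP. A pyrimidine ring is closed first and joined to PRPP afterwards, giving UMP and, further on, CTP. Deoxynucleotides for DNA are made when ribonucleotide reductase removes an oxygen from the ribose of the diphosphates, thymidylate needs a further methyl group from folate, and salvage kinases recover nucleosides that enter from outside. In many cell types the reductase and the thymidylate enzymes are made mainly around S phase, while the ring-building enzymes are present through the whole cell cycle.

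The gene counts per library were 15639751 to 16830389 in H/R and 7267809 to 8371882 in control, so the H/R libraries were the deeper ones throughout. After the H/R counts were thinned to the median control total, every call in the set was the same except that of Prps1, which was lost. Levels are given in CPM, the counts scaled to a common library total with TMM factors, with TMM factors of 1.07 to 1.08 in H/R and 0.920 to 0.938 in control. Changes are log2 fold changes of H/R over control ± SE from the quasi-likelihood test of edgeR (two-sided), with p adjusted by the Benjamini-Hochberg method over 11104 tested genes and 0.05 as the threshold. Of the 5 tested NSC markers, 2 were higher (Nes and Notch1) and 0 were lower by edgeR's tests, by DESeq2 or at an unadjusted p under 0.05. Nes averaged 331 CPM in H/R and 196 CPM in control, Sox2 averaged 31.03 CPM in H/R and 29.11 CPM in control, Notch1 averaged 32.9 CPM in H/R and 18.8 CPM in control, Msi1 averaged 6.77 CPM in H/R and 9.65 CPM in control, and Vim averaged 1329 CPM in H/R and 1221 CPM in control. Markers of astrocytes summed to 1.59 to 2.31 CPM in H/R and 0.130 to 1.55 CPM in control, and those of microglia and of endothelial cells summed to at most 1.07 CPM in H/R and 2.99 CPM in control. The neuron markers (33.2 to 37.0 CPM in H/R, 73.6 to 81.1 CPM in control) were carried by 1 gene, Map2. The part of these markers in the results was not tested, and in such bulk RNA fewer cells of a kind and less RNA per cell cannot be told apart.

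Of the 30 nucleotide synthesis genes that passed the filter on low counts, 7 were higher and 6 were lower after H/R (edgeR), whereas 37.8% of all tested genes passed the test, 18.8% as higher and 19.0% as lower. Among 8 deoxynucleotide genes, 5 were higher (Rrm1, Rrm2, Tyms, Tk1 and Dck) and 0 were lower, with a median log2 fold change of 1.02. Among 16 purine genes, 1 was higher (Pfas) and 6 were lower (Prps1, Paics, Impdh1, Gmps, Adss and Ampd2), with a median of -0.09. Among 5 pyrimidine genes, 1 was higher (Ctps) and 0 were lower, with a median of 0.32. The median over all tested genes was 0.01. In 12 of the 30 genes every H/R library lay above every control library, and in 7 every one lay below, where 49.7% of all tested genes did not overlap between groups (25.7% above and 24.0% below). For the counts of 0, no deoxynucleotide or pyrimidine gene was lower at an unadjusted p under 0.05 or by DESeq2, and edgeR's exact test called 1 pyrimidine gene (Ctps2) lower. At a fold change of at least 2 and an unadjusted p under 0.05, the thresholds of the study, 4 of the genes were higher (Rrm2, Tyms, Tk1 and Dck) and 0 were lower, against 5.82% and 5.37% of all genes.

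**Figure D1:**
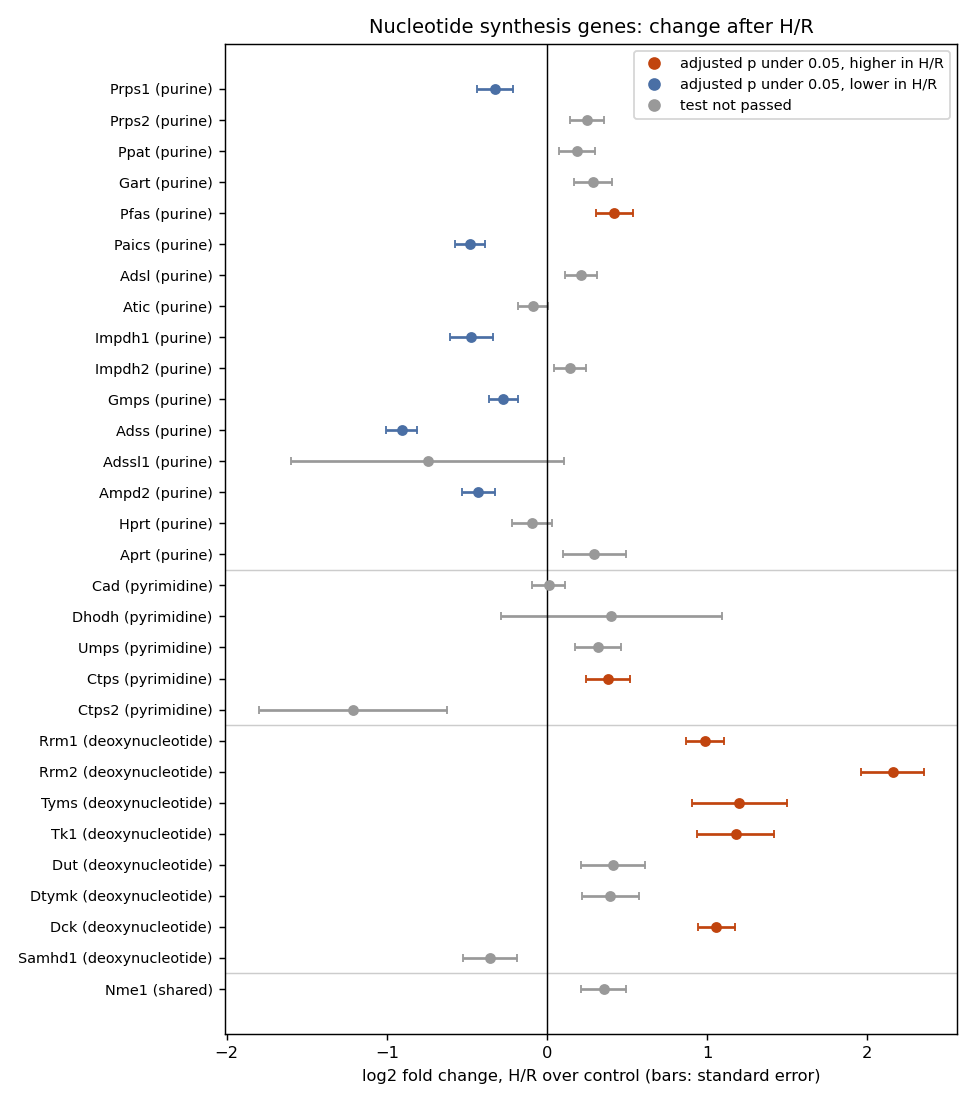
Log2 fold change of H/R over control (x axis, bars are the SE of the edgeR fit) for the 30 tested nucleotide synthesis genes, with the branch of each gene in brackets. The points above 0.9 all belong to deoxynucleotide genes, with Rrm2 at 2.16, while Adss at -0.91 is the lowest of the genes that passed the test.

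These calls differed in how much they relied on the scaling between libraries. Without TMM factors the median of all genes moved to 0.22, and the set then held 16 higher and 2 lower genes. Of all 11104 tested genes, 3704 were higher and 1272 were lower in that fit. The 5 higher deoxynucleotide genes and the lower Paics (-0.27) and Adss (-0.69) passed the test without the factors too, whereas Prps1, Impdh1, Gmps and Ampd2 kept a negative sign (-0.11, -0.26, -0.06 and -0.22) and no longer passed. The 5 deoxynucleotide calls and those of Paics and Adss also held in all 14 refits, which included leaving out each library in turn and thinning the H/R counts down to the depth of the controls.

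Ribonucleotide reductase, the enzyme that makes deoxyribonucleotides, is built of a large subunit, Rrm1, which holds the active and regulatory sites, and a small subunit, Rrm2, which carries the radical needed for the reaction and whose amount rises and falls with the cell cycle. Both promoters are shown because the genes of both subunits passed the test. The windows run from 250 bases before to 50 bases after the start site that RefSeq gives (build GRCm38.p6), on the strand of the gene, and capitals mark the words TTTCCCGC and TTTGGCGC (E2F-type), CACGTG (E-box) and CCAAT on either strand. The Rrm2 window is chr12:24708004-24708303 (plus strand) and that of Rrm1 is chr7:102441445-102441744 (plus strand).
Rrm2: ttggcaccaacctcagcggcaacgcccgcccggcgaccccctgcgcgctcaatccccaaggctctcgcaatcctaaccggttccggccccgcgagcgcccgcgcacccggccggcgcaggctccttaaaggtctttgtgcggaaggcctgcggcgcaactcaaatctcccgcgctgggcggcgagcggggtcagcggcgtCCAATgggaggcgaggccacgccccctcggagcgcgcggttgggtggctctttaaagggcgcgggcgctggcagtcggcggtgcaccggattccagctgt
Rrm1: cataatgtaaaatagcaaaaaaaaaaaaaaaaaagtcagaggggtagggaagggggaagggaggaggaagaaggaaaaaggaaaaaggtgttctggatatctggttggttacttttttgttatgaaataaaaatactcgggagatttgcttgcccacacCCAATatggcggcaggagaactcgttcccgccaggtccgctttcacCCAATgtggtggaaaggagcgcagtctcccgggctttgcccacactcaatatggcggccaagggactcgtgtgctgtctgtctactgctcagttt
The Rrm2 window held CCAAT once, with its first base at -50, and the Rrm1 window held it at -91 and at -45. CCAAT was found in 37.4% of all 32851 promoter windows of the same length, so that its presence does not set these promoters apart. Neither window held either of the E2F-type words searched, which occurred in 1.56% of all windows. Only exact copies of these words were searched, so other forms of such a site would not have been marked.

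Rrm2 had 66.5, 83.8 and 85.7 CPM in the H/R libraries, against 18.4, 22.6 and 11.5 CPM in the control libraries. The lowest H/R library was well above the highest control library, and control replicate 3 was the lowest of all. The fold change was 4.46 (log2 2.16 ± 0.20, adjusted p = 3.65e-06), the largest in absolute value among the tested genes of the set. Rrm1 had 175, 190 and 209.6 CPM in H/R, against 104, 106 and 79.8 CPM in control, again without overlap (log2 0.99 ± 0.12, adjusted p = 3.43e-05). The count of Rrm2 per count of Rrm1 in the same library, a ratio that does not depend on scaling, was 0.380, 0.442 and 0.409 in H/R and 0.178, 0.213 and 0.145 in control. The ratio was thus 2.33-fold higher in H/R, with no overlap, at the smallest p that 3 against 3 libraries allow (exact permutation test, two-sided, p = 0.1, adjusted p = 0.16 over 8 pairs). Rrm2b, the p53-inducible form of the small subunit, moved the opposite way, with 47.2 ± 2.0 CPM in H/R and 76.7 ± 8.0 CPM in control (SD, n = 3 each, log2 -0.70 ± 0.11, adjusted p = 0.000354).

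Thymidylate synthase, Tyms, adds the methyl group that turns dUMP into dTMP. Its RefSeq window, chr5:30073576-30073875 (minus strand), is shown since it held the E-box word CACGTG (capitals, first base at -61), which was found in 7.15% of all windows.
Tyms: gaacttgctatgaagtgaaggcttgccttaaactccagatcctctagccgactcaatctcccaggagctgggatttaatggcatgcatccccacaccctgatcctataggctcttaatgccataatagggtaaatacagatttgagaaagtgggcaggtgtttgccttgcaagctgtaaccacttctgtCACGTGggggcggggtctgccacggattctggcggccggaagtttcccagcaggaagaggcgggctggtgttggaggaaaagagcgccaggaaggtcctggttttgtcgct
Tyms was a low gene, with 12.9, 11.3 and 11.1 CPM in H/R, against 7.48, 4.29 and 3.44 CPM in control. Its H/R libraries lay above all controls (log2 1.20 ± 0.30, adjusted p = 0.00630), and control replicate 1 was the closest to them. Thymidine kinase 1, Tk1, which recovers thymidine, had 29.4, 38.0 and 26.7 CPM in H/R, against 15.9, 17.1 and 8.23 CPM in control, and passed the test (log2 1.18 ± 0.24, adjusted p = 0.00181). Deoxycytidine kinase, Dck, the salvage kinase for deoxycytidine and for purine deoxynucleosides, had 63.1, 65.4 and 71.2 CPM in H/R, against 32.0, 33.6 and 30.2 CPM in control. The libraries of Dck lay close together within each group and far apart between groups (log2 1.06 ± 0.12, adjusted p = 1.65e-05). The ratio of Tk1 to Dck overlapped between the groups, with 0.465, 0.581 and 0.374 in H/R and 0.496, 0.510 and 0.272 in control (exact permutation p = 0.7, adjusted p = 0.8), and its log2 difference of 0.19 turned to -0.11 without control replicate 3.

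The remaining genes of this branch did not pass the test. Dut, which clears dUTP and supplies dUMP, had 22.3, 26.9 and 32.4 CPM in H/R, against 25.9, 18.3 and 16.8 CPM in control (log2 0.41 ± 0.20, adjusted p = 0.122). Dtymk, which phosphorylates dTMP, had 32.2, 37.1 and 30.6 CPM in H/R, against 20.6, 32.6 and 22.6 CPM in control (log2 0.40 ± 0.18, adjusted p = 0.103). For both genes 1 control library lay within the H/R range, and the calls turned on it: without control replicate 1 Dut passed (0.63, adjusted p = 0.0166), and without control replicate 2 Dtymk passed (0.62, adjusted p = 0.0179). Samhd1, the phosphohydrolase that breaks deoxynucleotides down, was the only member of the branch with a negative fold change. It had 85.9, 85.7 and 88.9 CPM in H/R, against 137, 121 and 74.2 CPM in control, where replicate 3 was below every H/R library (log2 -0.36 ± 0.17, adjusted p = 0.118). Without that control library the change was -0.58 with an adjusted p of 0.000494. Leaving out control replicate 1, the highest, gave -0.18 (adjusted p = 0.358), and the fit without TMM factors gave -0.14 (adjusted p = 0.526).

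**Figure D2:**
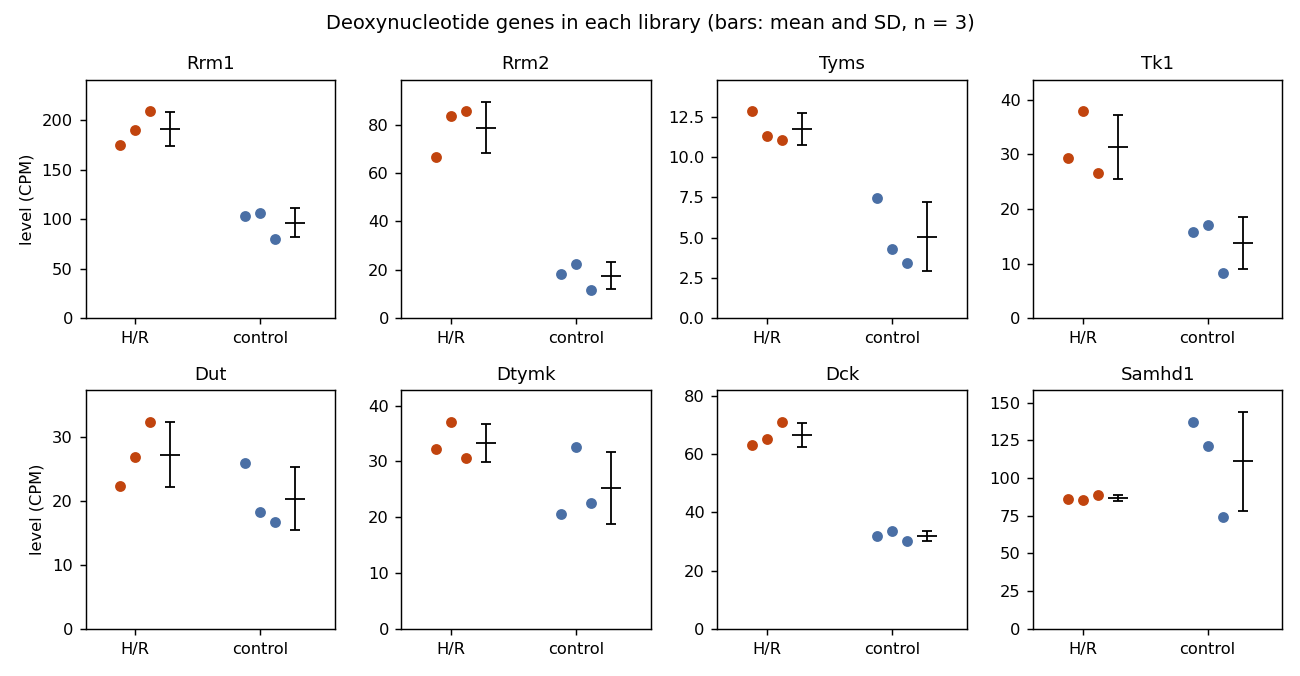
Level in CPM (y axis) of the 8 deoxynucleotide genes in each of the 3 H/R and 3 control libraries, with the mean and SD beside the points. Rrm1, Rrm2, Tyms, Tk1 and Dck have every H/R library above every control library, while Dut, Dtymk and Samhd1 overlap.

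The purine branch starts with PRPP, made by the synthetases Prps1 and Prps2. Prps1 had 42.9, 42.2 and 49.2 CPM in H/R, against 55.2, 57.5 and 55.5 CPM in control (log2 -0.32 ± 0.12, adjusted p = 0.0409). Prps2 had 97.7, 80.9 and 93.4 CPM in H/R, against 73.9, 75.2 and 79.9 CPM in control (log2 0.25 ± 0.11, adjusted p = 0.0836). The groups did not overlap for either gene, but in opposite order. The Prps1 call was weak: it was lost when H/R replicate 1 or 2 or control replicate 2 or 3 was left out (adjusted p of 0.0535 to 0.157), and when the H/R counts were thinned (adjusted p = 0.0534). The ratio of Prps1 to Prps2 was 0.439, 0.522 and 0.527 in H/R and 0.747, 0.765 and 0.695 in control, without overlap (exact permutation p = 0.1, adjusted p = 0.16). Of the 100-base stretches of Prps1, 3.43% are shared with the near-copy Prps1l3, so that some reads could be assigned to either gene.

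The ring of IMP is built by 6 enzymes of the set, of which 1 was higher and 1 was lower. Ppat, which commits PRPP to the purine ring, had 68.4, 64.2 and 77.7 CPM in H/R, against 58.9, 63.7 and 62.3 CPM in control (log2 0.19 ± 0.11, adjusted p = 0.210). Gart, a protein with 3 activities of the route, had 90.5, 96.7 and 89.6 CPM in H/R, against 84.3, 80.1 and 62.0 CPM in control (log2 0.29 ± 0.12, adjusted p = 0.0775). Pfas, which adds the next nitrogen from glutamine, had 77.8, 91.6 and 78.1 CPM in H/R, against 63.9, 65.7 and 55.2 CPM in control, and passed the test (log2 0.42 ± 0.12, adjusted p = 0.0117). The call of Pfas was lost without H/R replicate 2 (0.34, adjusted p = 0.0760). Paics, which carries out the carboxylase and the following ligase step, had 258, 257 and 284 CPM in H/R, against 340, 364 and 412 CPM in control. It was 0.716-fold of the control level with no overlap (log2 -0.48 ± 0.09, adjusted p = 0.00117). Adsl, which acts both here and on the way to AMP, averaged 81.6 ± 4.4 CPM in H/R and 70.4 ± 3.3 CPM in control (adjusted p = 0.119). Atic, which closes the ring, averaged 104.7 ± 4.4 CPM in H/R and 111 ± 6 CPM in control (SD, n = 3 each, adjusted p = 0.495).

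Ppat and Paics lie head to head with overlapping 5′ ends, the RefSeq start sites being 276 bases apart, and their fold changes had opposite signs. Their windows, chr5:76951529-76951828 (minus strand, Ppat) and chr5:76951052-76951351 (plus strand, Paics), are shown for this reason.
Ppat: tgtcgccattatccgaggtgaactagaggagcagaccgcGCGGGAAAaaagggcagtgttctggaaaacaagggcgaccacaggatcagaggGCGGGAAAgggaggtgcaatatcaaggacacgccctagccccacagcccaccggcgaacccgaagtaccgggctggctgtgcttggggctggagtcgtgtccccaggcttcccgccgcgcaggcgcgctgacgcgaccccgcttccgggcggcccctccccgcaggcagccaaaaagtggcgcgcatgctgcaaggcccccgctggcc
Paics: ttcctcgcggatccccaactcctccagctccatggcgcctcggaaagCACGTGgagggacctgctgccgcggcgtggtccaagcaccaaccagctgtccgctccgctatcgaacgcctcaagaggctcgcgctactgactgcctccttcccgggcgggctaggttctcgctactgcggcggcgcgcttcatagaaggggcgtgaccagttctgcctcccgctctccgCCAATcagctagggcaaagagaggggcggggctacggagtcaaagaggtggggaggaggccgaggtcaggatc
The capitals in the Ppat window mark the E2F-type word TTTCCCGC, read on the opposite strand, with first bases at -211 and -158, and those in the Paics window mark CACGTG at -203 and CCAAT at -23. Of the 29 genes of the set that had a window in the RefSeq table, only Ppat and Prps2 (at 34 bases after the start) held an E2F-type word searched, and neither passed the test of expression. CACGTG was found in 6 of the 29 and CCAAT in 9. Within a library, Paics had 3.77, 4.01 and 3.65 counts per count of Ppat in H/R and 5.77, 5.72 and 6.61 in control, without overlap (log2 difference -0.66, exact permutation p = 0.1, adjusted p = 0.16). In exon bases 6.15% of Ppat and 8.67% of Paics overlap each other on opposite strands, and the strand setting of the counting is not given in the sources used here. The same limit holds for Gart, Ampd2 and Umps, of whose exon bases 19.7%, 8.31% and 6.11% lie opposite to antisense genes.

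The branch from IMP to GMP held 2 lower genes of 3, where 19.0% of all tested genes were lower. Impdh1, an isoform of the rate-limiting IMP dehydrogenase, had 55.5, 55.1 and 42.3 CPM in H/R, against 79.4, 68.1 and 64.8 CPM in control (log2 -0.47 ± 0.13, adjusted p = 0.0137), and lost its call without H/R replicate 3 (-0.36, adjusted p = 0.0589). Impdh2, the isoform that is usually raised in proliferating cells, had 83.6, 80.3 and 84.7 CPM in H/R, against 71.0, 73.5 and 80.5 CPM in control (log2 0.14 ± 0.10, adjusted p = 0.284). The ratio of Impdh1 to Impdh2 was 0.664, 0.686 and 0.499 in H/R and 1.12, 0.926 and 0.805 in control (exact permutation p = 0.1, adjusted p = 0.16). Thus the H/R libraries held fewer Impdh1 than Impdh2 counts in every case, as did control replicates 2 and 3. Of the 100-base stretches of Impdh2, 31.4% are shared with the pseudogene Impdh2-ps. Gmps, the GMP synthetase, had 170.4, 183 and 171 CPM in H/R, against 197, 209.6 and 226 CPM in control. The groups did not overlap (log2 -0.27 ± 0.09, adjusted p = 0.0283), but this call was lost when any single library other than control replicate 1 was left out (adjusted p of 0.0608 to 0.112).

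On the way to AMP and back, 2 of 3 genes were lower, beside the same 19.0% of all tested genes. Adss, the adenylosuccinate synthetase of most tissues, had 70.2, 71.7 and 72.3 CPM in H/R, against 146, 129 and 127 CPM in control. The H/R libraries were nearly equal to each other and at 0.533 of the control level (log2 -0.91 ± 0.10, adjusted p = 1.28e-05). Its muscle-type isoform, Adssl1, was near the detection limit, with 1.27, 0.594 and 0.0589 CPM in H/R and 1.03, 1.04 and 1.20 CPM in control (adjusted p = 0.524). Ampd2, which deaminates AMP back to IMP, had 57.1, 53.7 and 52.9 CPM in H/R, against 76.4, 74.4 and 69.6 CPM in control (log2 -0.43 ± 0.10, adjusted p = 0.00581). The salvage enzymes did not pass the test. Hprt, which recovers hypoxanthine and guanine, averaged 48.8 ± 3.2 CPM in H/R and 52.1 ± 5.8 CPM in control (adjusted p = 0.586), and Aprt, which recovers adenine, averaged 18.8 ± 3.7 CPM in H/R and 15.3 ± 1.5 CPM in control (SD, n = 3 each, adjusted p = 0.263).

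**Figure D3:**
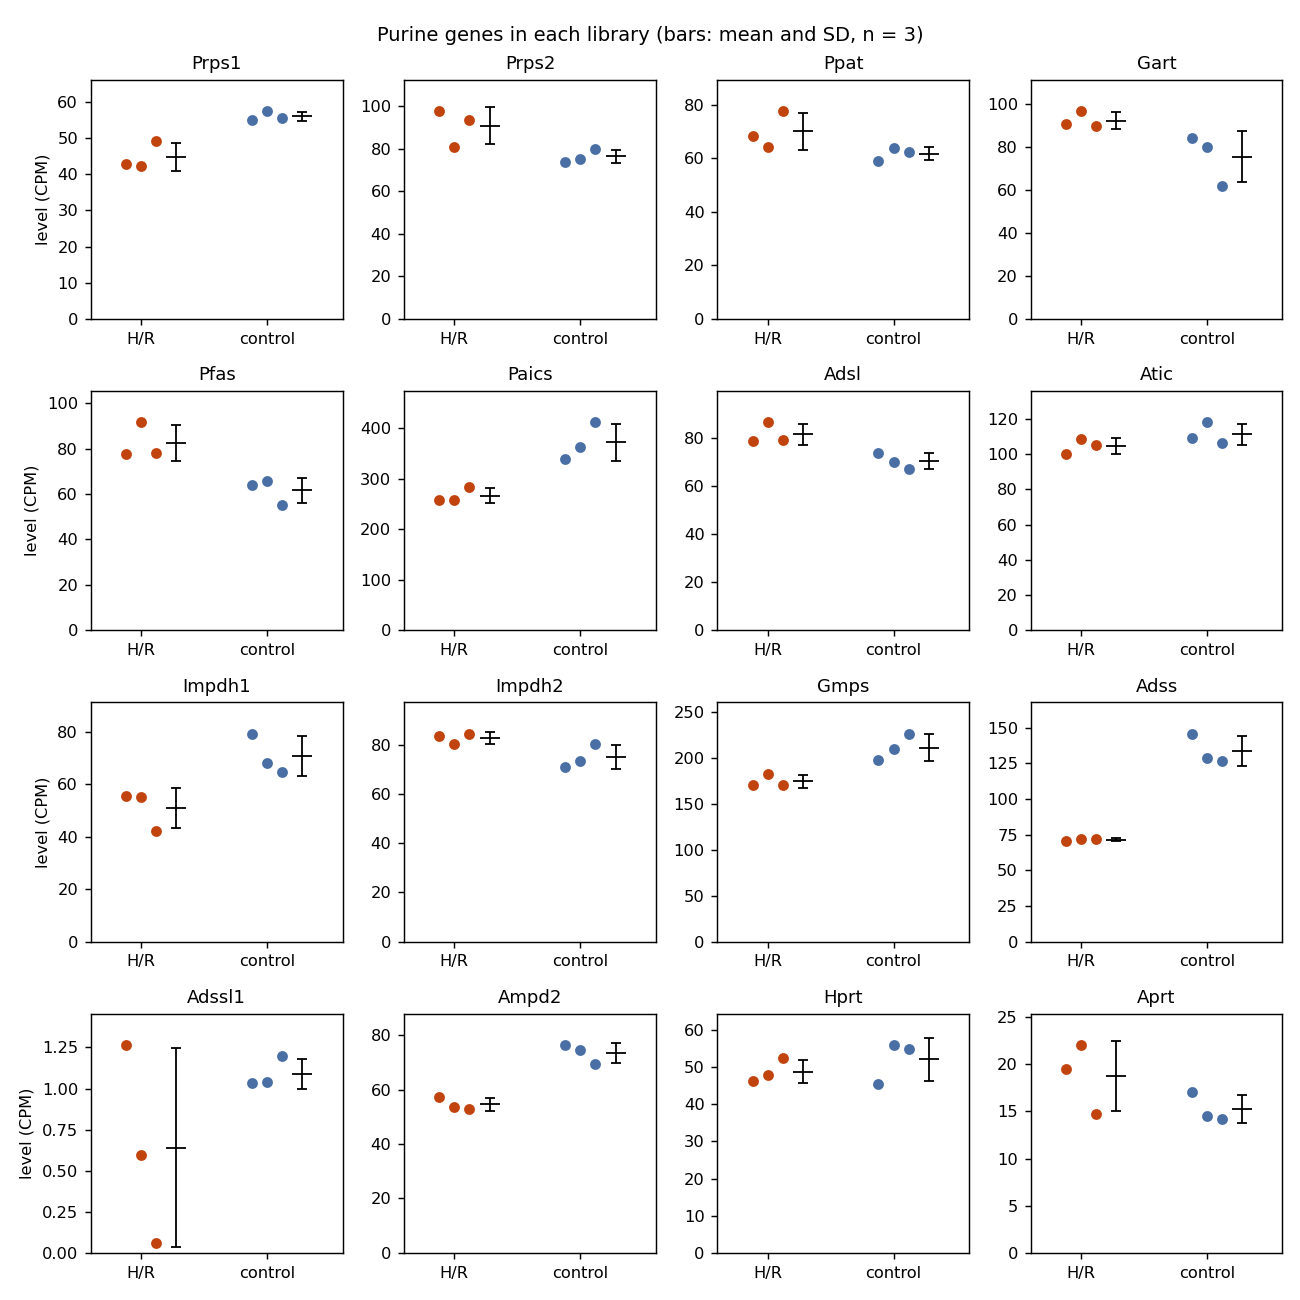
Level in CPM (y axis) of the 16 purine genes in each of the 3 H/R and 3 control libraries, with the mean and SD beside the points. Prps1, Paics, Impdh1, Gmps, Adss and Ampd2 have every H/R library below every control library, and among them Adss has the lowest fold change, at 0.533 of the control level.

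In the pyrimidine branch 3 of 5 genes overlapped between groups, where 49.7% of all tested genes did not overlap. Cad, the protein that carries the first 3 activities of the route, had 128, 134 and 119 CPM in H/R, against 138, 127 and 112 CPM in control, and was nearly level (log2 0.01 ± 0.10, adjusted p = 0.937). Dhodh, the mitochondrial dehydrogenase of the route, was low in both groups, with 1.87, 0.713 and 2.71 CPM in H/R and 1.16, 2.34 and 0.449 CPM in control (adjusted p = 0.682). Umps, which makes UMP, had 79.2, 86.9 and 81.9 CPM in H/R, against 50.5, 68.3 and 80.5 CPM in control. Its H/R libraries were close together while the control libraries spread widely (log2 0.32 ± 0.14, adjusted p = 0.103), and without control replicate 3 the change passed the test (0.47, adjusted p = 0.0124). Leaving out control replicate 1 instead gave 0.15 (adjusted p = 0.312). Ctps, the main CTP synthase, had 223, 237 and 233 CPM in H/R, against 221, 175 and 137 CPM in control. Here control replicate 1 nearly reached the H/R libraries (log2 0.38 ± 0.14, adjusted p = 0.0439), and the call was lost when any library other than control replicate 1 was left out (adjusted p of 0.0808 to 0.137) and with RLE size factors (adjusted p = 0.0508). The second CTP synthase, Ctps2, was low, with 1.21, 0.475 and 1.18 CPM in H/R and 1.93, 2.08 and 2.69 CPM in control (log2 -1.21 ± 0.59, adjusted p = 0.124).

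The nucleoside diphosphate kinases, which exchange phosphates between all nucleotides, could be assessed through 1 gene. Nme1 had 30.0, 35.0 and 35.6 CPM in H/R, against 27.97, 25.5 and 25.3 CPM in control (log2 0.35 ± 0.14, adjusted p = 0.0679). Nme2 was removed by the filter, with 3, 11 and 4 counts in H/R and 1, 5 and 14 counts in control. Of the exon bases of Nme2, 48.9% lie on the same strand within the overlapping gene Gm20390. Of its 100-base stretches, 44.5% occur in other genes as well. For Nme1 these shares were 12.5% and 9.62%, both with Gm20390. The counts of Nme1 and Nme2 may therefore be a poor measure of their levels. The part of this overlap in the low Nme2 counts was not tested.

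The genes of each branch were also summed within each library. The deoxynucleotide genes, Samhd1 included, reached 487, 538 and 556 CPM in H/R, against 361, 356 and 247 CPM in control. Without this breakdown gene the sums were 401, 452 and 467 CPM in H/R and 224, 235 and 173 CPM in control. The pyrimidine genes reached 433, 459 and 438 CPM in H/R, against 412, 375 and 332 CPM in control. The purine genes reached 1317, 1342 and 1346 CPM in H/R, against 1492, 1521 and 1539 CPM in control. The lower purine sum was seen only on the TMM-scaled values. As a share of the raw gene counts the purine genes made up 0.142%, 0.144% and 0.144% in H/R and 0.138%, 0.143% and 0.142% in control, with overlap. The shares of the deoxynucleotide genes, 0.0526%, 0.0579% and 0.0596% in H/R and 0.0335%, 0.0334% and 0.0227% in control, stayed apart. For every CPM of purine genes there were 0.370, 0.401 and 0.413 CPM of deoxynucleotide genes in H/R and 0.242, 0.234 and 0.160 CPM in control, a ratio that needs no scaling.

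**Figure D4:**
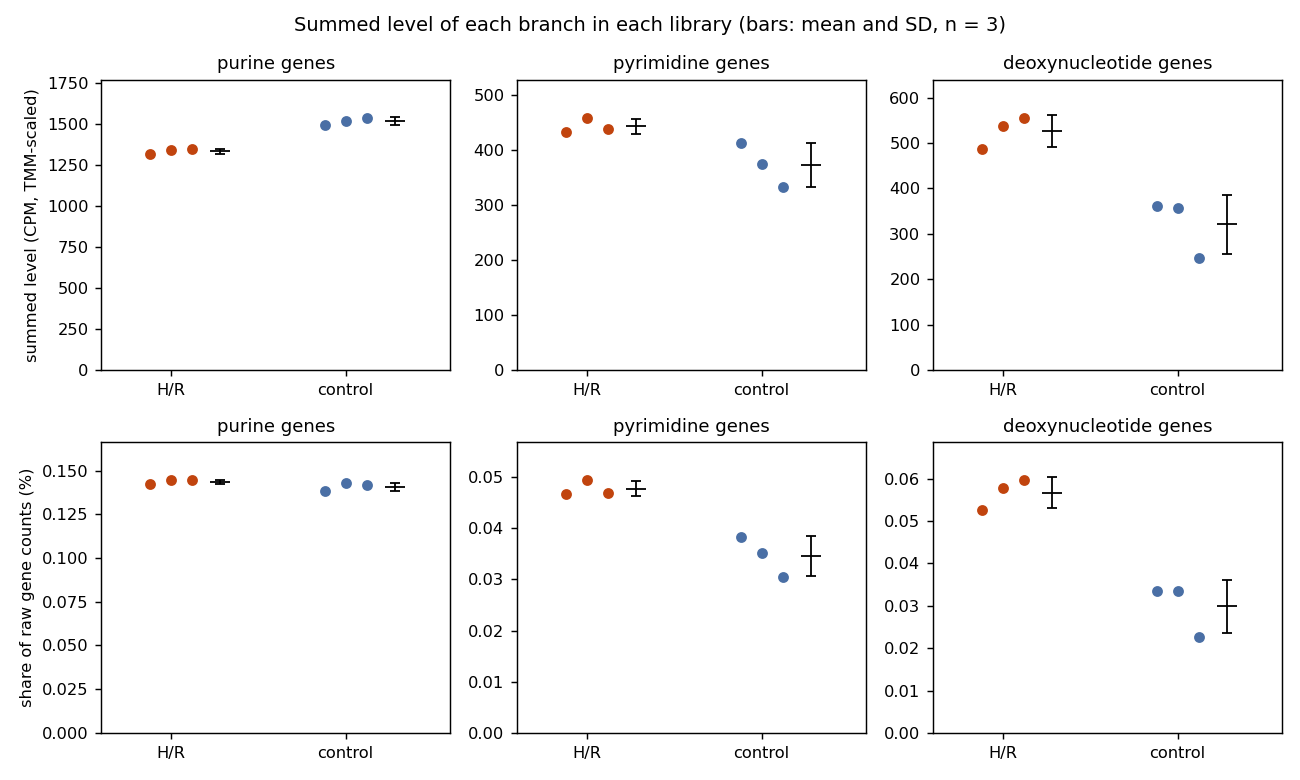
Summed level of the purine, pyrimidine and deoxynucleotide genes in each of the 3 H/R and 3 control libraries, in TMM-scaled CPM (upper row) and as a percentage of the raw gene counts (lower row), with the mean and SD beside the points. The deoxynucleotide sums of H/R lie above those of control on both scales, while the purine sums of H/R are lower in CPM only.

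**Figure D5:**
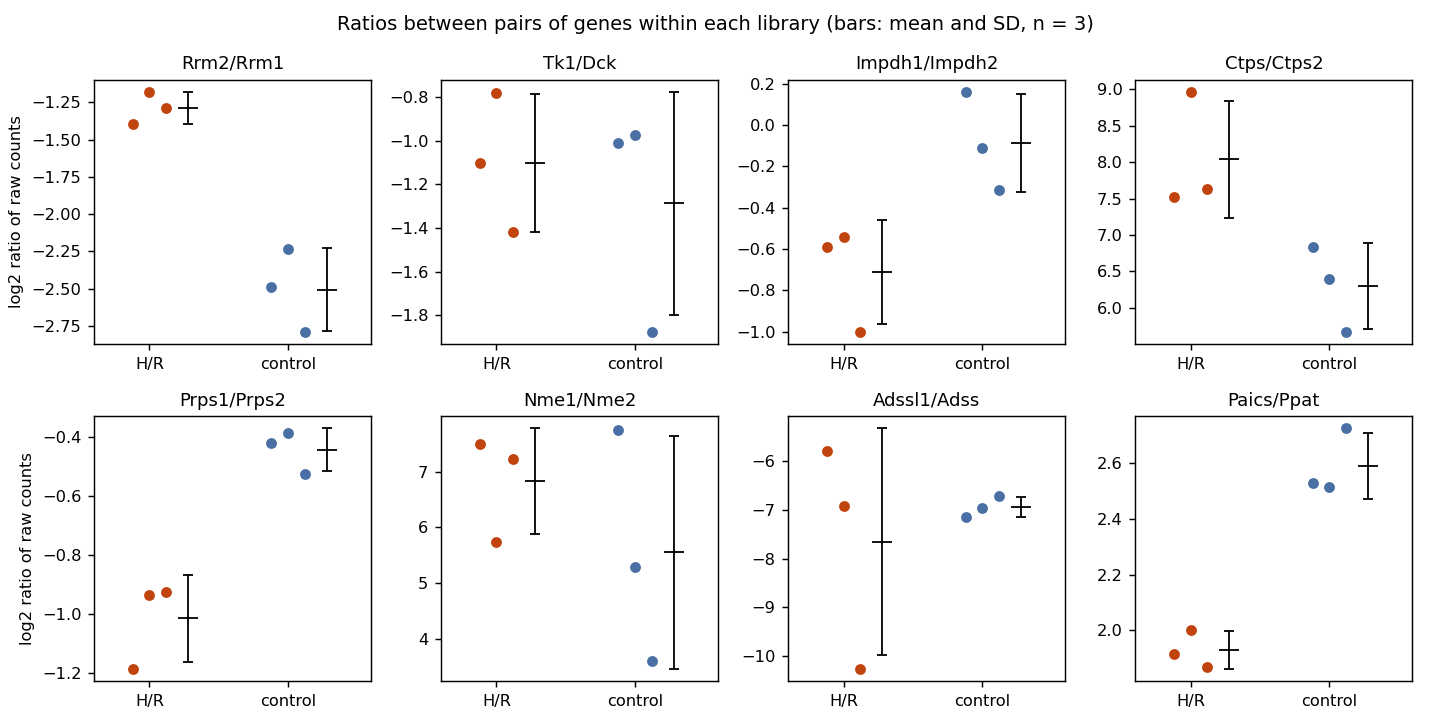
Log2 ratio of the raw counts (y axis, a different range in each panel) of 8 pairs of genes within each of the 3 H/R and 3 control libraries, with the mean and SD beside the points. The groups are apart for Rrm2/Rrm1 and Ctps/Ctps2, which are higher in H/R, and for Impdh1/Impdh2, Prps1/Prps2 and Paics/Ppat, which are lower in H/R.

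Of the 8 ratios between paired genes, as the plot of log2 ratios shows, 5 did not overlap between groups, each at the smallest p this design can give (0.1), so that none passed a threshold of 0.05. Among these, Ctps/Ctps2 had a log2 difference of 1.74 but rested on few Ctps2 counts. Nme1/Nme2 (1.28) and Adssl1/Adss (-0.71) overlapped between groups, and Adssl1/Adss turned to 0.59 without H/R replicate 3. The share of other gene pairs without overlap was not computed, and for single tested genes it was 49.7%. The pairs were chosen with earlier results known, so the count of 5 is no result about them.

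Levels per kilobase of exon give a rough comparison between genes. The length used joins all annotated exons of a gene, so it can exceed that of the transcripts made. It was 11012 bases for Rrm1, 2771 for Rrm2 and 1289 for Hprt, and the places below therefore depend on the annotation. Rrm1, with 191 CPM in H/R against 78.7 CPM for Rrm2, stood at place 12 by this measure. Paics was the most abundant gene of the set in both groups, with 84.8 ± 4.8 CPM per kb in H/R and 119 ± 12 CPM per kb in control, followed by Ctps with 69.7 ± 2.3 and Hprt with 37.9 ± 2.5 CPM per kb in H/R. Ctps had 53.6 ± 12.7 CPM per kb and Hprt 40.5 ± 4.5 CPM per kb in control, which do not differ beyond their spread. Rrm2 stood at place 4 of 31 in H/R, with 28.4 ± 3.8 CPM per kb, and at place 25 in control, with 6.32 ± 2.02 CPM per kb. In H/R its level did not differ beyond the spread from that of Impdh2 at place 5 (26.9 ± 0.7 CPM per kb). Adss stood at place 14 in H/R (15.8 ± 0.2 CPM per kb) and at place 4 in control (29.6 ± 2.3 CPM per kb), levels that did not differ beyond the spread from Ppat, Cad and Impdh1 in H/R and from Prps1 in control. Tyms was the lowest of the deoxynucleotide genes in both groups, with 1.93 ± 0.16 CPM per kb in H/R and 0.832 ± 0.349 CPM per kb in control (SD, n = 3 each).

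Genes that feed or follow these steps were taken from lists of neighbouring pathways, and of 61 tested genes 11 were higher and 8 were lower, with a median log2 fold change of 0.20. Of all tested genes 37.8% were called, so these counts are no result about the lists. The 61 count Uck2 under each of its 2 gene IDs. Those of folate one-carbon supply, which gives the methyl group to Tyms and carbons to the purine ring, went both ways, with 2 higher and 3 lower of 9. The cytosolic Mthfd1 was higher, averaging 82.2 ± 4.7 CPM in H/R and 47.5 ± 1.5 CPM in control (log2 0.79 ± 0.11, adjusted p = 7.64e-05). A further 4 genes of the list, mitochondrial as well as cytosolic ones, did not pass, so no split by compartment was shown. The 3 lower genes encode mitochondrial enzymes. Aldh1l2 averaged 476 ± 41 CPM in H/R and 1918 ± 49 CPM in control (-2.01 ± 0.09, adjusted p = 4.25e-09), Mthfd2 averaged 137 ± 11 CPM in H/R and 235 ± 13 CPM in control (-0.78 ± 0.09), and Shmt2 averaged 198 ± 15 CPM in H/R and 327 ± 31 CPM in control (-0.72 ± 0.10, SD, n = 3 each). The calls of these 4 named genes also passed without TMM factors.

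Of 13 tested genes of purine interconversion and salvage, 3 were higher and 1 was lower, where 18.8% of all tested genes were higher and 19.0% lower. Pnp, which splits purine nucleosides, averaged 47.3 ± 6.5 CPM in H/R and 22.5 ± 11.1 CPM in control (log2 1.08 ± 0.26), Ak1, an adenylate kinase, averaged 69.3 ± 2.2 CPM in H/R and 43.1 ± 2.7 CPM in control (0.68 ± 0.11), and Gmpr2, which turns GMP back to IMP, averaged 24.4 ± 1.9 CPM in H/R and 16.4 ± 3.0 CPM in control (0.58 ± 0.18). Ak5 was lower, at 3.83 ± 0.27 CPM in H/R and 10.9 ± 2.2 CPM in control (-1.51 ± 0.28). Of 10 gene IDs of pyrimidine interconversion, among them 2 of Uck2, 2 were higher, the uridine-cytidine kinase Uck1 (26.8 ± 0.9 CPM in H/R, 14.3 ± 1.8 CPM in control) and the scarce uridine phosphorylase Upp2 (2.64, 1.37 and 1.06 CPM in H/R, 0.387, 0 and 0.599 CPM in control). Of these 10, 0 were lower by edgeR's quasi-likelihood test or DESeq2, with 1 lower at an unadjusted p under 0.05 and 1 by the exact test. Nme4, a mitochondrial diphosphate kinase, was higher (12.8 ± 1.9 CPM in H/R, 6.17 ± 2.67 CPM in control).

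In the pentose phosphate list, 1 of 9 was higher and 2 were lower. Prpsap1, which binds PRPP synthetase, averaged 46.6 ± 6.3 CPM in H/R and 32.8 ± 1.7 CPM in control, Rpe averaged 88.2 ± 6.3 CPM in H/R and 113 ± 6 CPM in control, and Taldo1 averaged 67.3 ± 1.4 CPM in H/R and 86.9 ± 18.4 CPM in control (SD, n = 3 each). Without TMM factors neither lower call of this list passed. Of 6 breakdown genes, the xanthine dehydrogenase gene Xdh was higher (52.2 ± 1.9 CPM in H/R, 27.6 ± 5.6 CPM in control, log2 0.92 ± 0.15) and the ecto-nucleotidase gene Nt5e was lower (60.5 ± 4.3 CPM in H/R, 91.6 ± 15.7 CPM in control, -0.60 ± 0.13). Of 3 tested nucleoside transporters, Slc29a1 was higher (60.9 ± 3.9 CPM in H/R, 44.6 ± 2.9 CPM in control), and 0 were lower by any of the tools or at an unadjusted p under 0.05. The 7 genes of nucleotide pool cleaning gave 0 calls by edgeR's quasi-likelihood test and by DESeq2, with 2 higher and 0 lower both at an unadjusted p under 0.05 and by the exact test.

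Markers of S phase moved with the deoxynucleotide genes. Of 10 such markers 9 were higher, and all 10 had every H/R library above every control library, as 25.7% of all tested genes did. Their sum was 731 to 793 CPM in H/R and 365 to 445 CPM in control. Mcm5, a subunit of the replicative helicase, averaged 109 ± 6 CPM in H/R and 40.5 ± 3.8 CPM in control (log2 1.43 ± 0.11), Pcna, the sliding clamp, averaged 134 ± 12 CPM in H/R and 67.4 ± 4.1 CPM in control (0.99 ± 0.11), and Slbp, which binds histone mRNAs, averaged 72.1 ± 2.6 CPM in H/R and 35.2 ± 5.6 CPM in control (1.03 ± 0.13). The part of the share of cells in S phase in the deoxynucleotide changes was not tested. The 5 tested genes whose log2(CPM + 1) over the 6 libraries was most like that of Rrm2 were Efnb2, Polq, Topbp1, Fubp1 and Foxj2, with Pearson r of 0.9973 to 0.9985. As the libraries form 2 groups, these r values describe mainly the difference between the groups, and they come without a test.

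Noncoding readouts at these loci gave little beyond the genes. The lncRNA table held 58 transcripts placed at 26 of the genes, of which 18 passed the filter, 15 of them overlapping exons of the gene on its own strand and so sharing its reads. Among them 1 was higher and 0 were lower, against 4.93% of all 6779 tested lncRNAs that passed the test. The higher one was a sense-overlapping transcript of Tyms, with 166, 136 and 110 counts in H/R and 32, 19 and 18 counts in control (log2 1.59 ± 0.33, adjusted p = 0.00661), a call that was lost without H/R replicate 1. An antisense transcript at the 5′ end of Rrm2 had 24, 32 and 32 counts in H/R and 8, 3 and 0 counts in control (adjusted p = 0.209). Circular RNAs were listed from Adss, Gmps, Tyms, Ppat and Rrm1, 1 each, with at most 4 junction reads in any library, too few to compare.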

How the data were processed

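Per the labels and the submitters' processing notes, the authors used cutadapt 1.9.3 for trimming, HISAT2 2.0.4 for alignment to mm10 (STAR 2.5.1b for circular RNAs), HTSeq 0.9.1 for counting per gene and edgeR 3.16.5 for their tests. The deposited tables hold raw counts per gene, per lncRNA transcript and per circular RNA junction. The strand setting and the annotation release are not given in the sources used here. Further columns hold the authors' own normalized values, fold changes and p-values, and 18 columns of per-sample values were not used.

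The 31 genes, the branches, the pathway and marker lists and the 8 gene pairs were chosen with earlier results of these data known. Raw counts were analysed in R 4.3.3 with edgeR 4.0.16 (filterByExpr, TMM, glmQLFit and glmQLFTest, H/R against control, no covariate, two-sided), fitted on the whole table of 14665 genes, of which 11104 passed the filter. The Benjamini-Hochberg adjustment covered all tested genes. The lncRNA table was fitted in the same way (6779 transcripts tested). The common coefficient of variation between replicates was 0.144 for genes and 0.405 for lncRNAs, and the script was tested on simulated data. Replicates differed by more than sampling noise in every pair (chi-square over degrees of freedom of 9.00 to 29.3). Counts of PCR-amplified reads are not independent molecules.

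Ratios of raw counts within a library were compared by exact permutation tests. Alternatives were the exact test of edgeR, DESeq2 1.42.0, scaling by RLE or not at all, a filter at 1 CPM (3 libraries or more) or none, a block for the replicate number, omission of each library, thinning of the H/R counts to the control median, and the thresholds of the study (unadjusted p under 0.05, fold change of at least 2). All 31 genes are named. Of the other lists, the 3 lowest adjusted p per list in each direction set the genes named, together with the 5 genes most like Rrm2. In the marker paragraphs, Map2 and the 5 tested NSC markers were named after their values were seen. Exon lengths and overlaps came from GENCODE vM21. Promoters came from RefSeq (GRCm38.p6), matched by gene ID for 29 of the 31 genes. Listed genes without a row in the gene table were not analysed here, and some items of the lists are not reported here.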

Additional observations from a re-analysis of the deposited data

How the results depend on the processing

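The calls of Rrm1, Rrm2, Tyms, Tk1, Dck, Paics and Adss held in all 14 refits. Without scaling factors the set had 16 higher and 2 lower genes, the purine genes 6 higher and 2 lower, the pyrimidine genes 2 higher and the other pathway genes 23 higher, and Atic (0.13) and Hprt (0.12) changed sign. In the same fit 3704 of all 11104 tested genes were higher and 1272 were lower, so these counts are no result about the lists. The thresholds of the study left 4 higher and 0 lower genes in the set, 0 higher and 0 lower purine genes, 0 higher pyrimidine genes, and 4 higher and 3 lower other pathway genes. Pyrimidine genes gave 0 higher calls with RLE size factors, 2 higher calls with no filter on low counts and 1 lower call by the exact test, and deoxynucleotide genes gave 1 lower call (Samhd1) with no filter. Cad, at log2 0.01, turned to -0.00103 by DESeq2, -0.000897 with RLE size factors and -0.0222 after thinning.

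With each library left out in turn, the counts ran from 0 to 2 for higher purine genes, 0 to 1 for higher pyrimidine genes, 0 to 1 for lower deoxynucleotide genes, 7 to 14 for higher other pathway genes and 0 to 1 for higher lncRNAs. The lowest count of other pathway genes came without H/R replicate 1. The log2 differences ran from -0.11 to 0.34 for Tk1/Dck and from -1.65 to 0.59 for Adssl1/Adss, and the log2 fold changes from -0.0716 to 0.0817 for Cad and from -0.0372 to 1.09 for Dhodh. Adssl1 did not pass the filter in some refits and has no value there. The cause of these shifts was not tested, and the fits with a library left out also held fewer samples.

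Whether replicate numbers pair the libraries could not be decided, as 3 libraries per group are too few for values this small. Deviations of same-numbered libraries correlated at 0.039, 0.004 and 0.022. H/R replicates 1 and 3 correlated best with the control of the same number, and H/R replicate 2 with control replicate 3 (0.008). With the replicate number as a block the set had 7 higher and 5 lower genes, Prps1 having lost its call (adjusted p = 0.0608). The low genes Adssl1, Dhodh and Ctps2 did not pass the main test and had the widest standard errors of the set, and Ctps2 passed by the exact test only (adjusted p = 0.0442). Nme2 had too few counts to test.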
